A study of Homo sapiens with 12 samples.

Results

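The T-cell receptor V, D and J segments are the gene pieces that a developing T cell joins into its antigen receptor genes. They were chosen by name, as every row whose symbol starts with TRA, TRB, TRG or TRD followed by V, D or J, and 223 of the 58288 rows met this rule. The 4 loci contributed 114 TRA rows, 82 TRB rows, 17 TRG rows and 10 TRD rows. Constant genes were not included. By kind, 54 TRA V, 67 TRB V, 12 TRG V and 3 TRD V segments stood beside 60 TRA J, 14 TRB J, 5 TRG J and 4 TRD J segments, 1 TRB D segment and 3 TRD D segments.

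The study sequenced rRNA-depleted RNA of the human T-cell acute lymphoblastic leukemia (T-ALL) lines HPB-ALL and KOPTK1, to examine pre-mRNA splicing after loss of SHQ1, an assembly chaperone of H/ACA ribonucleoproteins. Cells carried a lentiviral pLKO.1 shRNA against SHQ1 or, as control, against GFP, and all were kept in puromycin at 2 μg/mL, for 48 h by the labels. The labels list 3 control and 3 shSHQ1 samples per line, and do not say whether these were separate cultures. A table was deposited for each line, with 6 library columns headed only by numbers, 7 to 12 for HPB-ALL and 1 to 6 for KOPTK1.

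The headers tie a column to its line through its table, but to no shRNA, so no segment was compared between shSHQ1 and control. Libraries are therefore named by their header, with no treatment attached. Library totals were 3.68e+07 to 4.28e+07 counts in HPB-ALL and 2.29e+07 to 3.61e+07 counts in KOPTK1. SHQ1 itself was at 70.3, 71.8, 70.9, 47.6, 46.4 and 49.1 RPKM in HPB-ALL libraries 7 to 12, and at 45.7, 44.1, 46.4, 41.9, 41.8 and 39.3 RPKM in KOPTK1 libraries 1 to 6. It was lower in 10, 11 and 12 than in 7, 8 and 9, and lower in 4, 5 and 6 than in 1, 2 and 3, and no treatment was assigned from these values. RPKM here is reads per kilobase of annotated exon, scaled to the library total. These are bulk libraries, in which fewer cells of a type and less RNA per cell cannot be told apart. All 8 T-lineage markers (CD3D, CD3E, CD3G, CD247, CD2, CD5, CD7 and LCK) had a median of 1 RPKM or more in both lines, whereas 0 of 6 myeloid and 0 of 4 NK markers did. Of the 4 erythroid markers only HBA1 reached that level, and the B-lineage gene CD79A reached it in both lines.

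A T-cell receptor chain gene is built by V(D)J recombination. The RAG1-RAG2 enzyme cuts beside a V and a J segment, or V, D and J in TRB and TRD, and end joining fuses them. Where the segments point the same way, the DNA between them leaves the chromosome. The joined segment then lies close to the enhancer and is read through to the constant gene, and the cells of a clone share the same join. The TRD D and J segments sit between the TRA V and TRA J segments, so that a TRA join by deletion takes them out of the chromosome. Thymocytes usually rearrange TRD, TRG and TRB before TRA.

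Sequences of the leading segments are shown because their ends are what a receptor join brings together, and because they show which segments a short read can tell apart. Reference transcripts of the GENCODE annotation lifted to GRCh37, read by gene name and not by position, were found for 203 of the 223 members, 195 of them with the length given in the tables. Capitals in the J segments mark the J-region motif, 4 codons that read TTN or TGG, then GGN, NNN and GGN (N is any base), for the phenylalanine or tryptophan and the glycines. Only the given strand was searched, and a J segment can hold both forms.
TRAJ3: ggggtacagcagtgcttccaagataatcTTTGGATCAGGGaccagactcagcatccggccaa
TRAJ33: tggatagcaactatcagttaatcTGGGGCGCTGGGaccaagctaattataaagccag
TRBJ2-1: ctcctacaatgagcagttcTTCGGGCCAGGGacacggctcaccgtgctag
TRBJ2-7: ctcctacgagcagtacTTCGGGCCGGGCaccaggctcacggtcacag
TRGJ2: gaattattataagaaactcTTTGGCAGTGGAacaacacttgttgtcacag
TRGJ1: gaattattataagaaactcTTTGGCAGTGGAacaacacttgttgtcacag
TRGJP2: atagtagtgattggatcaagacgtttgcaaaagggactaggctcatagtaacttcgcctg
Either form was present in 70 of 77 J segments with a sequence (90.9%), and TRGJP2 held neither. The TTN form was in 0 of 122 V segments within their last 60 bases, and the TGG form in 1. TRGJ1 and TRGJ2 are the same 50 bases, the only identical group among the 203 members with a sequence, so reads inside them cannot be assigned to either copy. In the V segments, capitals mark the last match to TANNNNTGN in the final 60 bases, a tyrosine and the conserved cysteine at which the joined region starts.
TRBV20-1: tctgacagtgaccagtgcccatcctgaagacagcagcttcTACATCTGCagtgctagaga
TRAV8-4: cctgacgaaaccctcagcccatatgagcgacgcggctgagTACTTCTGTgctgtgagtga
TRAV1-1: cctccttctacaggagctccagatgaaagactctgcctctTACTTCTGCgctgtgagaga
TRGV2: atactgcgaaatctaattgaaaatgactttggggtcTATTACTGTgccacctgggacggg
TRGV8: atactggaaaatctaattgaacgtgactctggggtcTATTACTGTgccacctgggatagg
That pattern was present in 117 of 122 V segment ends (95.9%), and also in 22 of 77 J segments. TRBV12-3, TRBV12-4, TRBV10-3 and TRBJ1-2 are named only.

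The libraries of each line fell into different sets, and this touches the comparisons below. In KOPTK1, the libraries headed 1, 2 and 3 stood apart from those headed 4, 5 and 6. The segments that led in HPB-ALL were higher in the former, and those that led in KOPTK1 were lower. Among the HPB-ALL libraries, those headed 10, 11 and 12 held more of most segments that led in KOPTK1 than those headed 7, 8 and 9 did. Counts over the members are therefore given also without the KOPTK1 libraries 1, 2 and 3, without the HPB-ALL libraries 10, 11 and 12, or without both sets. Where the sets of a line differ, its median can fall between them, at a level that no library had. Folds of medians below carry this limit.

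The lines differed in the number of segments with reads at the level taken as the minimum. Reads on a segment do not by themselves show that it was joined. A median of 1 RPKM or more over the 6 libraries was reached by 49 of 223 members (21.97%) in HPB-ALL, where 38.4% of all rows reached it, and by 95 (42.6%) in KOPTK1, where 39.6% of all rows did. Without HPB-ALL libraries 10, 11 and 12 the former count was 47, and without KOPTK1 libraries 1, 2 and 3 the latter was 92. TRA gave 7 of these in HPB-ALL and 28 in KOPTK1, TRB 30 and 54, TRG 12 and 13, and TRD 0 in both. Reads on members summed to 0.0231 to 0.0254% of the counts of an HPB-ALL library and to 0.0628 to 0.0917% of a KOPTK1 library. In HPB-ALL 70 members had no read in any library, and in KOPTK1 81 had none. Of 99 members at 1 RPKM or more in either line, 58 were at least 4-fold higher in KOPTK1 (2.95% of all rows tested) and 1 in HPB-ALL (0.377% of all rows). Folds are ratios of medians after adding 0.1 RPKM to each. Without KOPTK1 libraries 1, 2 and 3, 21 of 101 members were at least 4-fold higher in HPB-ALL (2.93% of all rows) and 67 in KOPTK1 (4.21% of all rows). Without HPB-ALL libraries 10, 11 and 12, 1 member was higher in HPB-ALL (0.398% of all rows) and 61 in KOPTK1 (3.2% of all rows). Without both sets the counts were 21 (2.92% of all rows) and 66 (4.51% of all rows). All 6 KOPTK1 libraries lay above all 6 HPB-ALL libraries for 70 members (22.9% of all rows), and the opposite order held for 21 (22.8% of all rows). The share of members above in HPB-ALL, 21.2%, was thus close to that of all rows, and the share above in KOPTK1, 70.7%, was over it. Without KOPTK1 libraries 1, 2 and 3, 75 members had all KOPTK1 libraries above (33.2% of all rows) and 24 all HPB-ALL libraries (31.3% of all rows). Without HPB-ALL libraries 10, 11 and 12 these counts were 71 (27.8% of all rows) and 23 (26.4% of all rows). Without both sets of libraries, 75 of 101 members had every KOPTK1 library above every HPB-ALL library (38% of all rows) and 24 the opposite (33.8% of all rows).

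TRB encodes the beta chain, which pairs with the pre-T alpha chain early and with the alpha chain later. Different TRB V segments led in each line. TRBV12-3, at chromosome 7, 142560423 to 142560931 on the plus strand of GRCh38, stood highest in HPB-ALL. Its level was 99.4, 102, 106, 111, 105 and 103 RPKM in the libraries headed 7 to 12. In KOPTK1 it was 59.9, 60.8 and 62.5 RPKM in libraries 1, 2 and 3, and 18.3, 20.2 and 12.2 RPKM in 4, 5 and 6. All HPB-ALL libraries were above all KOPTK1 libraries. The median was 2.59-fold higher in HPB-ALL, with a KOPTK1 median of 40.0 RPKM in the gap between the sets. Its neighbor TRBV12-4 ran along at 27.1 to 37.4 RPKM in HPB-ALL and 4.52 to 21.4 RPKM in KOPTK1. Counts of both rows were partly fractional, so that a share of their reads had been divided between rows, and the level of TRBV12-4 apart from TRBV12-3 is uncertain. TRBV12-3 took 44.4 to 52.7% of all TRB V counts in an HPB-ALL library.

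TRBV20-1 (chromosome 7, 142626649 to 142627399) was the V segment with the highest level in KOPTK1. It reached 651, 642 and 632 RPKM in libraries 1, 2 and 3, and 1044, 1045 and 1072 RPKM in libraries 4, 5 and 6. In HPB-ALL it was 2.39, 1.44 and 1.13 RPKM in libraries 7, 8 and 9 but 37.8, 38.8 and 37.5 RPKM in 10, 11 and 12. The lines did not overlap, although within each line the libraries made separate clusters of 3. The median was 42.3-fold higher in KOPTK1, but the medians of 848 and 19.9 RPKM both fall in gaps between sets of libraries. The fold therefore describes no single library. TRBV20-1 held 66.1 to 74.2% of the TRB V counts of a KOPTK1 library. TRBV10-3, the next segment by level, showed 85.1, 76.0, 76.7, 145, 135 and 139 RPKM in KOPTK1 libraries 1 to 6, and 0.825 to 4.73 RPKM in HPB-ALL. Its libraries clustered as those of TRBV20-1 did, with 4, 5 and 6 above 1, 2 and 3.

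Along the map, the other TRB V segments were low in a position-dependent way. In KOPTK1 the 14 segments from TRBV6-5 to TRBV13, which include members of the TRBV5, TRBV6 and TRBV7 families, all had medians between 5.14 and 22.1 RPKM, TRBV7-9 being highest. The same segments lay between 0.344 and 3.18 RPKM in HPB-ALL, and 5 of them reached 1 RPKM. Downstream of TRBV20-1, the 9 segments from TRBV21-1 to TRBV29-1 had medians of 0.0415 to 1.93 RPKM in KOPTK1, with TRBV28 the only member at 1 RPKM. Levels thus dropped after TRBV20-1, on the side of the D and J segments. In HPB-ALL, the 7 segments from TRBV12-5 to TRBV19, just downstream of TRBV12-4, had medians of 0.234 to 0.5997 RPKM. TRBV28 was higher there, at 5.53 to 6.60 RPKM in every HPB-ALL library, against 2.69 to 4.29 RPKM in KOPTK1 libraries 1, 2 and 3 and 0.635 to 1.17 RPKM in 4, 5 and 6. TRBV30 lies beyond the constant genes on the minus strand and joins by inversion. It was at 3.43 to 6.65 RPKM in KOPTK1 and 0.809 to 1.28 RPKM in HPB-ALL.

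Some TRB V rows differed little between the lines. TRBV7-3 had medians of 4.42 RPKM in HPB-ALL and 4.77 RPKM in KOPTK1, and the pseudogene TRBV8-2 5.69 and 5.43 RPKM. For both, the ranges of the lines overlapped. TRBV7-2 was at 17.2 to 21.98 RPKM in HPB-ALL and 22.3 to 29.7 RPKM in KOPTK1, a small gap with no overlap. TRBV27 was the 1 member at least 4-fold higher in HPB-ALL, and is named after its values were seen. Its median was 1.06 RPKM, from 10 to 26.5 counts a library, against 0.171 RPKM in KOPTK1, and the ranges of the lines did not overlap.

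**Figure D1:**
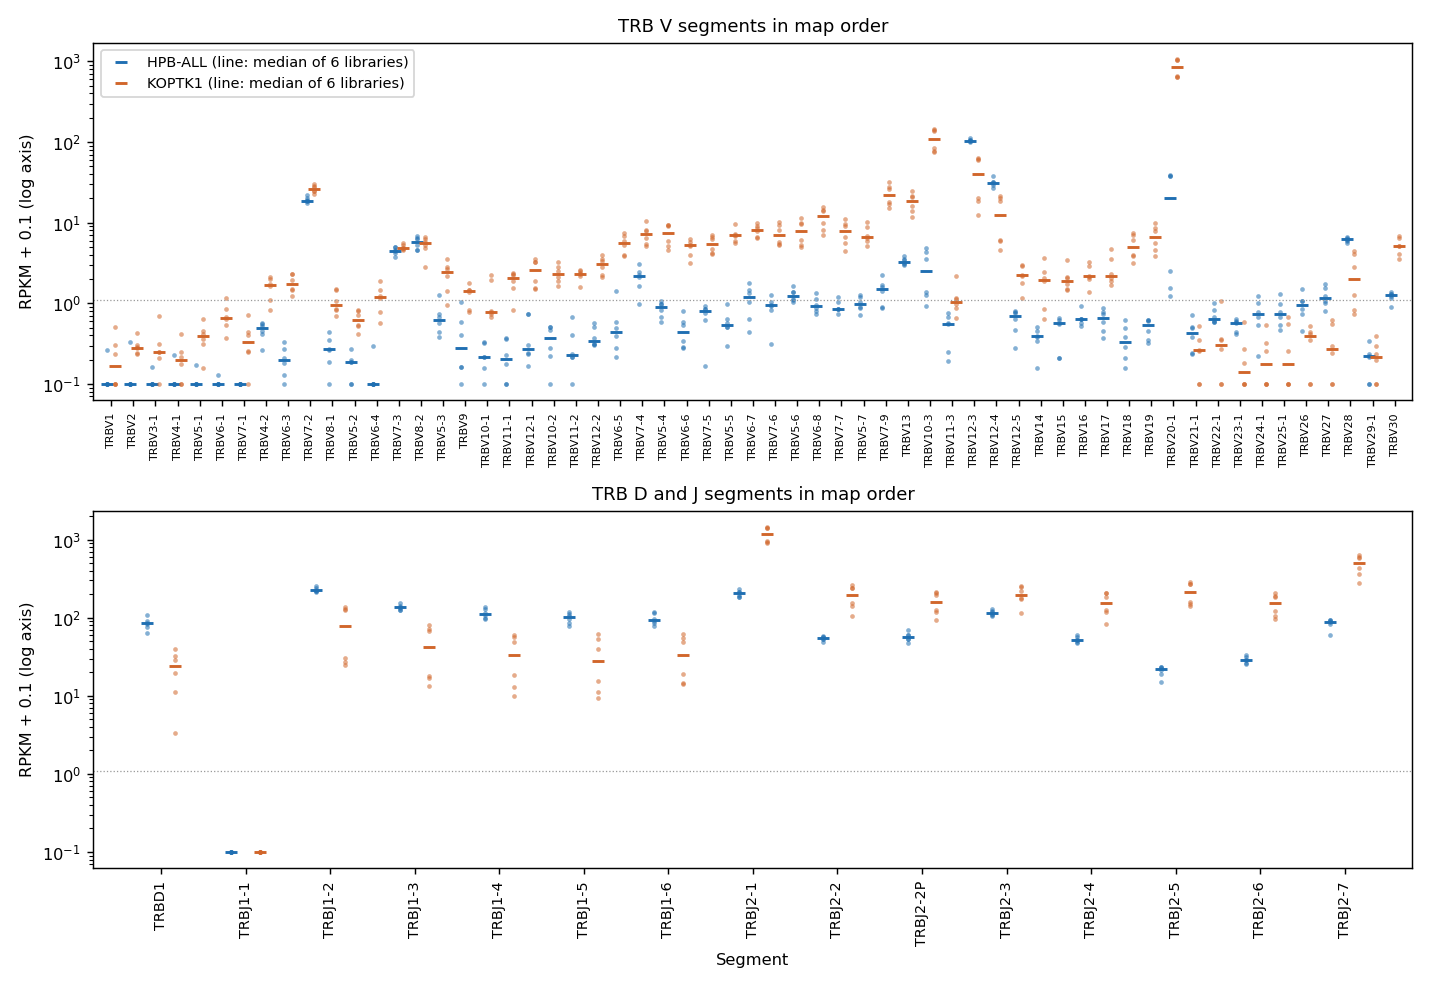
TRB V segments (top) and TRB D and J segments (bottom) in map order on the x axis, with RPKM plus 0.1 on a log y axis. Small points are the 6 libraries of each line, bars their medians, and the dotted line marks 1 RPKM. In KOPTK1 (orange) the highest V segment is TRBV20-1, followed by 9 low segments, while in HPB-ALL (blue) TRBV12-3 leads, and the TRBJ1 group is higher in HPB-ALL and the TRBJ2 group in KOPTK1.

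The TRB J segments come in groups ahead of each constant gene, TRBJ1 before TRBC1 and TRBJ2 before TRBC2, and the lines differed by group. Levels are compared here only among J segments, since a read that merely overlaps a short segment is counted in full, which raises its RPKM against that of a V segment. TRBJ1-2 (chromosome 7, 142787017 to 142787064) led in HPB-ALL, at 255, 227, 241, 217, 214 and 222 RPKM in libraries 7 to 12. KOPTK1 libraries 1, 2 and 3 held 127, 137 and 130 RPKM of it, and libraries 4, 5 and 6 held 30.8, 26.7 and 24.7 RPKM. TRBJ1-1, directly upstream, had no read in any library, whereas TRBJ1-3 to TRBJ1-6 had HPB-ALL medians of 92.1 to 135 RPKM. For all 5 segments from TRBJ1-2 to TRBJ1-6, every HPB-ALL library exceeded every KOPTK1 library (22.8% of all rows). TRBD1, the D segment just upstream of the TRBJ1 group, is 12 bases long and was at 64.3 to 109 RPKM in HPB-ALL and 3.219 to 39.3 RPKM in KOPTK1, from at most 48 counts.

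TRBJ2-1 (chromosome 7, 142796365 to 142796414) was the highest J segment in KOPTK1. Libraries 1, 2 and 3 had 951, 929 and 906 RPKM and libraries 4, 5 and 6 had 1412, 1454 and 1418 RPKM of it. HPB-ALL was also above 1 RPKM throughout, at 194, 183, 182, 215, 232 and 216 RPKM. The lines did not overlap, with a median 5.77-fold higher in KOPTK1. TRBJ2-7 was 5.67-fold higher, with 281 to 639 RPKM in KOPTK1 and 60.3 to 94.0 RPKM in HPB-ALL, and TRBJ2-5 was 9.70-fold higher. The 7 segments from TRBJ2-2 to TRBJ2-7, with the pseudogene TRBJ2-2P, had medians of 153 RPKM or more in KOPTK1 and 21.9 to 115 RPKM in HPB-ALL. Only for TRBJ2-3 did the libraries of the lines overlap, and 22.9% of all rows had every KOPTK1 library above. HPB-ALL thus showed reads on both J groups. The constant genes had the same order: TRBC1 had medians of 241 RPKM in HPB-ALL and 89.0 RPKM in KOPTK1, and TRBC2 of 204 and 1087 RPKM. Both KOPTK1 medians fall in a gap between sets of libraries. TRBC1 was at 138, 140 and 142 RPKM in libraries 1, 2 and 3 and at 39.3, 39.5 and 36.4 RPKM in 4, 5 and 6. TRBC2 was at 866, 855 and 853 RPKM in the former and at 1307, 1307 and 1311 RPKM in the latter.

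TRA encodes the alpha chain, and its V segments were nearly silent apart from a few. TRAV8-4 (chromosome 14, 21894433 to 21895030) led in HPB-ALL at 48.6, 45.5, 44.4, 39.8, 43.4 and 39.7 RPKM. It was at 24.0, 23.8 and 22.9 RPKM in KOPTK1 libraries 1, 2 and 3, and at 6.33, 5.60 and 5.26 RPKM in 4, 5 and 6. No KOPTK1 library reached the lowest HPB-ALL library, and TRAV8-4 took 73.6 to 76.6% of the TRA V counts of an HPB-ALL library. The last expressed V segments on the map, TRAV17, TRAV18 and TRAV19, followed with HPB-ALL medians of 3.17, 5.18 and 3.35 RPKM and KOPTK1 medians of 1.26, 1.64 and 0.826 RPKM. In KOPTK1 TRAV8-4 was the highest TRA V segment in libraries 1, 2 and 3, and TRAV1-1 (chromosome 14, 21621838 to 21622567) in 4, 5 and 6. TRAV1-1, the first segment of the locus, had the highest KOPTK1 median. It was at 10.8, 13.8 and 14.1 RPKM in libraries 1, 2 and 3 and at 23.7, 25.7 and 24.0 RPKM in 4, 5 and 6. HPB-ALL libraries 7, 8 and 9 had no read on it, and 10, 11 and 12 had 0.303 to 0.347 RPKM, at most 5 counts.

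Long stretches of the locus gave nothing. The 25 V segments from TRAV20 to TRAV41 and the 23 J segments from TRAJ61 to TRAJ39 had no read in any of the 12 libraries. A count of 0 allows up to 3 counts, which is 0.0700 to 0.131 CPM (counts scaled to the library total alone), and this limit covers counting error only. The 10 TRD members were also at 0 in every library, and TRDC was at or near 0. All but TRDV1, which lies between TRAV23DV6 and TRAV24, sit between these stretches. The 12 V segments from TRAV1-2 to TRAV12-1 summed to at most 3 counts in an HPB-ALL library and to 0 in KOPTK1.

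The J segments set the lines apart more clearly. TRAJ3 (chromosome 14, 22543179 to 22543240) was read in both lines, at 47.7 to 59.3 RPKM in HPB-ALL. In KOPTK1 it was at 57.5, 45.0 and 50.0 RPKM in libraries 1, 2 and 3 and at 39.1, 44.8 and 38.5 RPKM in 4, 5 and 6. The ranges overlapped through libraries 1 and 3 only, and libraries 4, 5 and 6 lay below every HPB-ALL library. TRAJ3 took 63.1 to 78.2% of the TRA J counts in HPB-ALL. Downstream of it only TRAJ2 and TRAJ1 were above 1 RPKM there, with medians of 5.76 and 5.13 RPKM. The 20 segments from TRAJ24 to TRAJ4 had HPB-ALL medians of at most 0.593 RPKM, from 4.5 to 34 counts per library over the whole stretch. In KOPTK1 the same 20 segments all exceeded 1 RPKM, with medians of 10.5 to 37.4 RPKM and TRAJ10 and TRAJ7 highest. The median over this stretch was 14.6, 17.01 and 13.9 RPKM in KOPTK1 libraries 1, 2 and 3 and 25.4, 24.5 and 25.9 RPKM in 4, 5 and 6. Libraries 4, 5 and 6 were again higher, which is the order TRAV1-1 had.

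TRAJ33 (chromosome 14, 22508602 to 22508658) stood alone upstream of that stretch. It was at 12.9, 12.9 and 10.9 RPKM in KOPTK1 libraries 1, 2 and 3 and at 24.0, 24.4 and 22.6 RPKM in 4, 5 and 6, with 4, 5 and 6 higher as for TRAV1-1. HPB-ALL libraries had at most 2.5 counts of it. The 8 segments between them, TRAJ32 to TRAJ25, had KOPTK1 medians of 0 and at most 2 counts in all per library. TRAC, the constant gene behind all of these, did not separate the lines, with medians of 35.0 RPKM in HPB-ALL and 35.5 RPKM in KOPTK1.

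**Figure D2:**
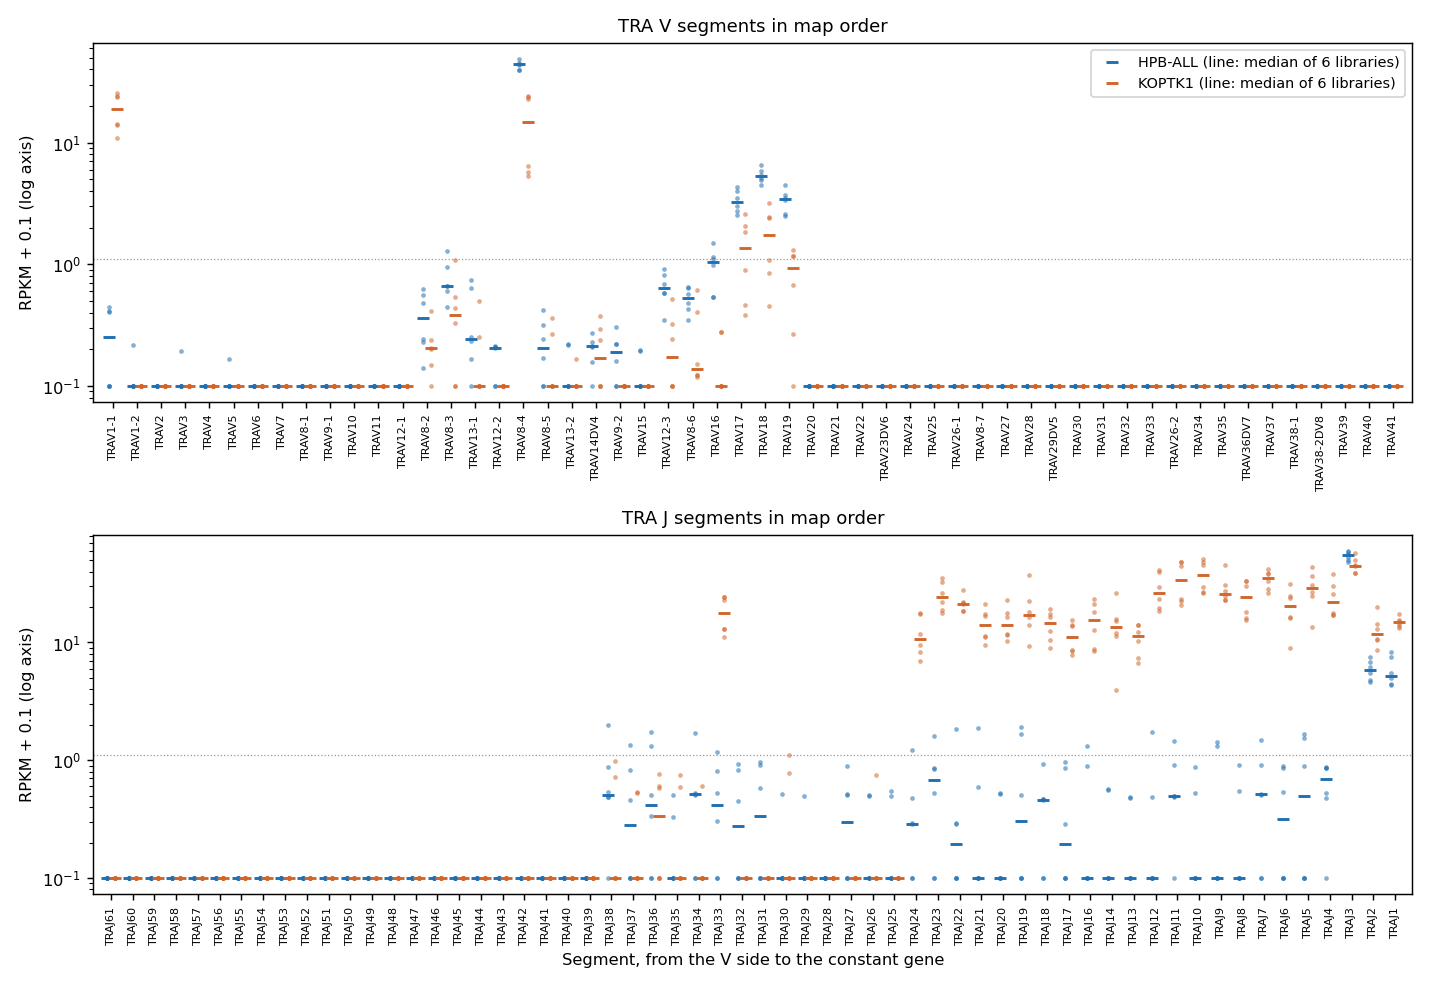
TRA V segments (top) and TRA J segments (bottom) in map order, with RPKM plus 0.1 on a log y axis, 6 libraries a line as points and medians as bars. TRAV1-1, TRAJ33 and the 20 segments from TRAJ24 to TRAJ4 are higher in KOPTK1 (orange), and TRAV8-4 is higher in HPB-ALL (blue). TRAJ3 is read in both lines. The segments from TRAV20 to TRAV41 and from TRAJ61 to TRAJ39 lie at the floor of 0.1.

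TRG encodes the gamma chain, which gamma-delta T cells use and which many alpha-beta lineage cells also rearrange. HPB-ALL expressed a series of TRG V segments, while in KOPTK1 TRGV2 stood out. In HPB-ALL, 9 of 12 TRG V members reached 1 RPKM, with TRGV7, a pseudogene, at 26.5 to 29.8 RPKM, TRGV8 at 19.3 to 21.5 RPKM and TRGV3 at 13.98 to 17.1 RPKM. KOPTK1 libraries held 13.2 to 15.7 RPKM of TRGV7 in 1, 2 and 3 and 2.6 to 4.31 RPKM in 4, 5 and 6. Of the 9 TRG V members at 1 RPKM or more in either line, 8 had every HPB-ALL library above every KOPTK1 library (22.8% of all rows). TRGV2 (chromosome 7, 38362864 to 38363518 on the minus strand) went the other way, at 58.2, 63.7 and 64.1 RPKM in KOPTK1 libraries 1, 2 and 3 and 100.4, 97.5 and 104.5 RPKM in 4, 5 and 6. HPB-ALL libraries had 11.6 to 16.1 RPKM of it, so that the median was 5.82-fold higher in KOPTK1. TRGV9, TRGV10 and TRGV11 lie nearest to the J segments and had medians under 1 RPKM in both lines.

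All 5 TRG J segments were higher in every KOPTK1 library than in any HPB-ALL library (22.9% of all rows). TRGJ2 had 165 to 285 RPKM in KOPTK1 and 22.3 to 37.3 RPKM in HPB-ALL. TRGJ1 had 39.8 to 76.7 RPKM and 3.03 to 5.65 RPKM, but since the sequences printed above are identical, the division of reads between TRGJ1 and TRGJ2 is uncertain. TRGJP2 was at 115, 109 and 110 RPKM in KOPTK1 libraries 1, 2 and 3 and at 188, 189 and 193 RPKM in 4, 5 and 6. It was at 0.973 to 1.004 RPKM in HPB-ALL libraries 7, 8 and 9, a level of few counts, and at 6.72, 5.53 and 5.87 RPKM in 10, 11 and 12. TRGJP and TRGJP1 had KOPTK1 medians of 27.9 and 29.9 RPKM and no read in libraries 7, 8 and 9. TRGC2 had medians of 23.8 RPKM in HPB-ALL and 82.0 RPKM in KOPTK1. The latter falls between 63.2 to 65.5 RPKM in libraries 1, 2 and 3 and 98.4 to 99.5 RPKM in 4, 5 and 6.

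**Figure D3:**
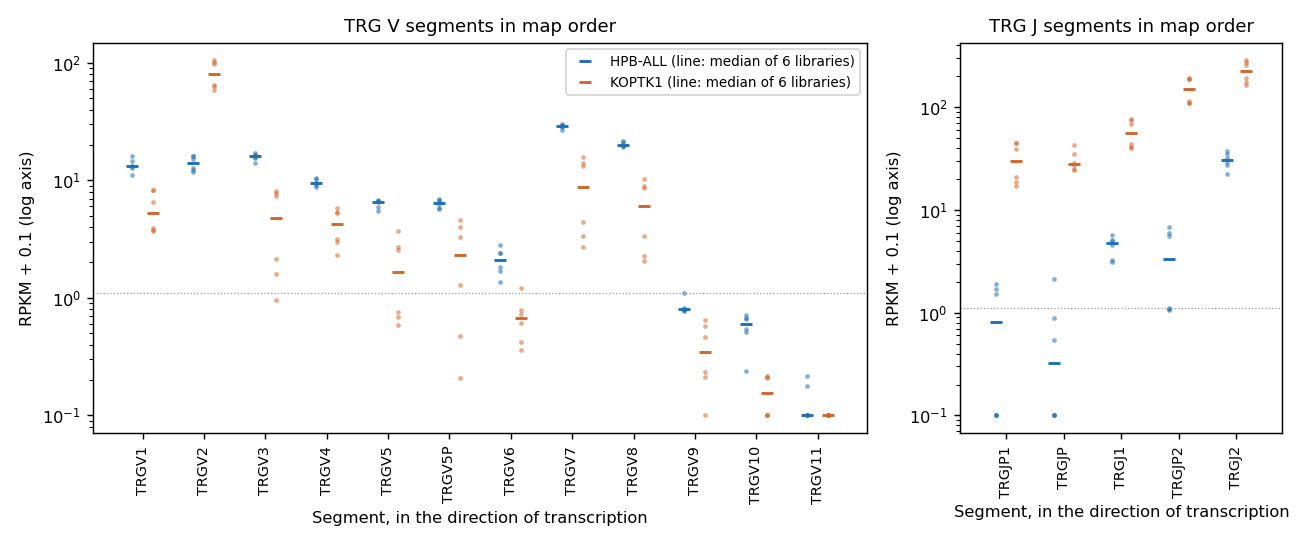
TRG V segments (left) and TRG J segments (right) in the direction of transcription, with RPKM plus 0.1 on a log y axis, libraries as points and medians as bars. TRGV2 and all 5 J segments are higher in KOPTK1 (orange), and the other V segments up to TRGV8 are higher in HPB-ALL (blue).

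Segments that led in one line were also read in libraries of the other, and the amount differed by library. No member at 10 RPKM or more was 4-fold higher in HPB-ALL, so 13 members that were at least 2-fold higher were taken, a rule chosen after the values were seen. These were TRBV12-3, TRBV12-4, TRAV8-4, TRGV1, TRGV3, TRGV7, TRGV8, TRBD1 and TRBJ1-2 to TRBJ1-6. Their level in a KOPTK1 library, as a percent of the HPB-ALL median, had a median over segments of 53.0, 52.4 and 52.1% in libraries 1, 2 and 3 and of 15.3, 12.8 and 11.7% in libraries 4, 5 and 6. For every one of the 13 members, libraries 1, 2 and 3 lay above 4, 5 and 6, an order that was not counted over all rows. The rule fixes a median of at most about 50%, but not which libraries are high. Over all rows of the tables picked by the same rule, 202 in number, the medians were 56.8, 56.1, 55.5, 19.997, 19.6 and 19.0%. CD79A, which is no member, moved likewise, at 40.3 to 45.9 RPKM in HPB-ALL, 24.0 to 24.6 RPKM in KOPTK1 libraries 1, 2 and 3 and 5.87 to 7.17 RPKM in 4, 5 and 6.

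In the other direction, 37 members were at 10 RPKM or more and at least 4-fold higher in KOPTK1. TRBJ2-1, TRBV20-1, TRBJ2-7, TRGJ2 and TRBJ2-5 led in RPKM, which is raised for the short J segments. The level of the 37 members in an HPB-ALL library was taken as a percent of the KOPTK1 median. Its median over segments was 0.662, 0 and 0% in libraries 7, 8 and 9 and 4.29, 3.94 and 3.87% in 10, 11 and 12. For 34 of the 37 members the median of libraries 10, 11 and 12 was above that of 7, 8 and 9, and for 14 these libraries did not overlap. Neither count was made over all rows, so no share stands beside them. They also lean on few reads, since the 20 members from TRAJ24 to TRAJ4 had at most 4 counts in any HPB-ALL library. The 4-fold rule keeps these shares low by construction, so their size is a description. With the 2-fold rule, 42 members were taken, and shares reached 63.4% in library 9. Under the 4-fold rule TRBJ2-6 was highest, in library 9, and TRBJ2-1, which every HPB-ALL library showed, lay between 15.4 and 19.6%. Over the 143 rows of all kinds picked by the same rule, the medians were 5.78 to 6.41% in libraries 7, 8 and 9 and 9.04 to 9.64% in 10, 11 and 12. What the libraries share, and how RNA with the segments of either line came to be read in the other, was not tested. Since the columns carry no shRNA label, the sets of libraries and the shRNA cannot be told apart here.

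**Figure D4:**
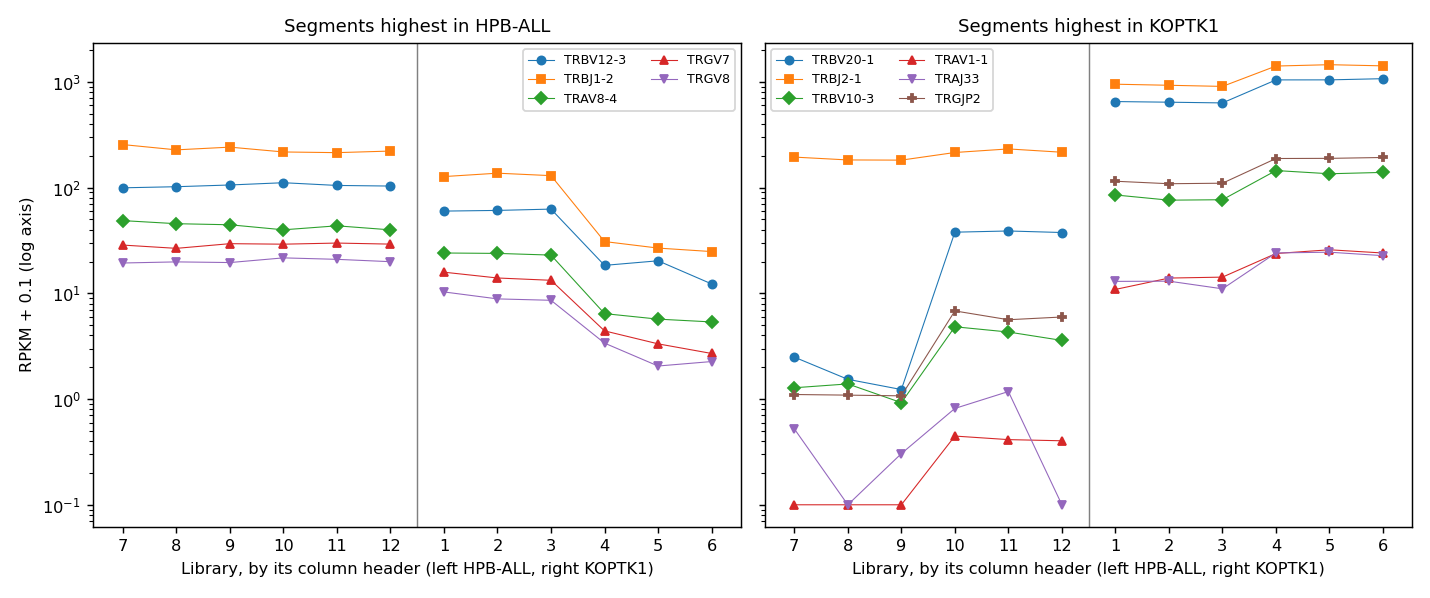
RPKM plus 0.1 (log y axis) of leading segments in each library, by column header, HPB-ALL left and KOPTK1 right of the vertical line in each panel. Segments highest in HPB-ALL are lower in KOPTK1 libraries 4, 5 and 6 than in 1, 2 and 3, and TRBV20-1 is higher in HPB-ALL libraries 10, 11 and 12 than in 7, 8 and 9.

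**Figure D5:**
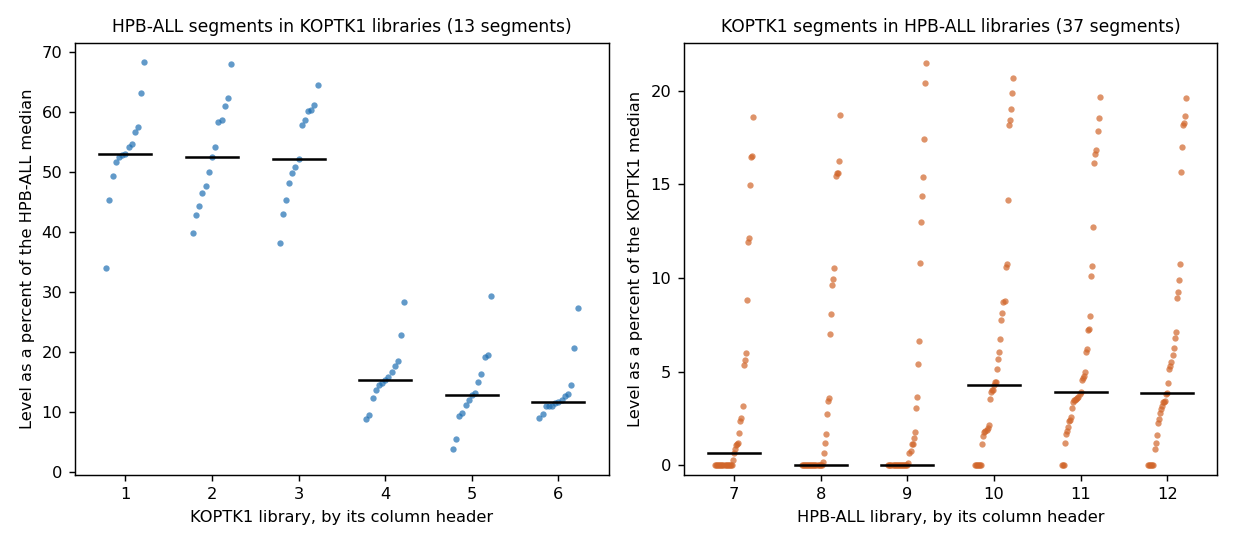
Level of each segment in a library of the other line, as a percent of the median level in the line where it leads, with 13 HPB-ALL segments in KOPTK1 libraries on the left picked by a 2-fold rule, and 37 KOPTK1 segments in HPB-ALL libraries on the right, picked by a 4-fold rule. Points are segments and black bars medians, which are near 53% and 12 to 15% in the KOPTK1 sets and at most 4.29% in HPB-ALL.

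The genes that build and carry the receptor were read from a list of 17. TRAC, TRBC1, TRBC2, TRGC1, TRGC2, TRDC, CD3D, CD3E, CD3G, CD247, PTCRA, RAG1, RAG2, DNTT, CD4, CD8A and CD8B gave 14 genes at a median of 1 RPKM or more in HPB-ALL (38.4% of all rows) and 15 in KOPTK1 (39.6% of all rows). Of 15 at that level in either line, 5 were at least 4-fold higher in KOPTK1, namely TRBC2, TRGC1, RAG1, DNTT and CD8A (2.95% of all rows), and 0 in HPB-ALL (0.377% of all rows). Without KOPTK1 libraries 1, 2 and 3, 6 were higher in KOPTK1 (4.21% of all rows) and 1, TRBC1, in HPB-ALL (2.93% of all rows). RAG1, the cutting subunit of the recombinase, had medians of 2.08 RPKM in HPB-ALL and 9.60 RPKM in KOPTK1, and DNTT, the polymerase that adds bases at the joins, 11.8 and 57.7 RPKM. CD3D, a signaling chain that every receptor needs, was nearly level, with medians of 295 and 301 RPKM.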

How the data were processed

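rRNA-depleted RNA was sequenced as paired 150-base reads. Per the labels, the authors used Trimmomatic 0.36, STAR 2.5.4b, Picard 2.18.7, featureCounts 1.6.2, edgeR 3.22.3 and hg38. The deposited tables hold estimated counts (86.7% of the members' values were whole numbers, with a tolerance of 0), the authors' average log2 CPM, and the fold changes and p-values of their own comparison, which were not used. The Illumina TruSeq kit named in the study's methods does not mark strand, so reads of overlapping antisense transcripts are not separated. The 12 columns are headed by numbers only, and were tied to a line because each sample's label names its line's table and each table has 6 columns for 6 samples. No header ties a column to an shRNA, so the planned edgeR test of shSHQ1 against control was not run.

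Counts were scaled to RPKM with library totals in Python 3.11.15 (pandas 2.3.3). Symbols came from gene IDs for 203 members and from RefSeq GRCh38 positions for 20. Of the former, 191 had a RefSeq position, and for 191 the symbol was the same. The V and J segments with the 3 highest medians and the highest D segment of each locus and line were named, and the 5 highest that differed at least 4-fold. Blocks of neighboring segments, the 2-fold rule and other names were chosen after the values were seen, and the members and lists were chosen with earlier results of these data known. Comparisons are descriptions without tests. The functions were tested on simulated data: 100% of 200 rows changed between simulated lines were recovered, and shares set at 10% were found at 11.4%. The simulated gaps were far wider than 4-fold and held counting noise only, so the recovery was fixed by the setting. It checks the code, and not how well the 2-fold or 4-fold rule works on these data. The B-lineage marker list is not reported here in full.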

Additional observations from a re-analysis of the deposited data

Results flagged for a closer look

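TRBJ2-7 in HPB-ALL was the only result set aside by the test for a single sample far from the others. The library headed 7 had 60.3 RPKM, and the other 5 libraries had 81.8 to 94.0 RPKM. The gap to the nearest of them was 0.639 of the whole range, above Dixon's critical value for 6 libraries. Chance passes that limit in about 1 in 20 groups, and 50 groups were examined. The fold of TRBJ2-7 between the lines rests on medians and not on this library.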

How the results depend on the processing

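No paired analysis was possible because the column headers tie no column to a sample or an shRNA, so the shared replicate numbers pair no columns. For the same reason the planned test of shSHQ1 against control was not run, nor its alternatives with DESeq2, without a filter on low values and without single replicates.

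The count of 49 members at 1 RPKM or more in HPB-ALL became 121 at a minimum of 0.1 RPKM, 26 at 10 RPKM and 37 at 1 CPM. It became 84 with the authors' average log2 CPM per exon length. In KOPTK1, 95 became 118 at 0.1 RPKM, 54 at 10 RPKM, 65 at 1 CPM and 141 with the authors' average. That average lies above 0 for rows without a read, so its counts include members with none. Among the TRD members, which had no read, 4 passed with it in HPB-ALL and 7 in KOPTK1. The count of 1 member at least 4-fold higher in HPB-ALL was 0 with a pseudocount of 1 RPKM, at 10-fold, with the authors' average and with each length extended by the read length less 1 base. It was 7 without the filter on low values, 2 with TMM scaling over both tables and 23 at 2-fold. It was 21 without the KOPTK1 libraries headed 1, 2 and 3, and 21 without these and the HPB-ALL libraries headed 10, 11 and 12. Leaving out single libraries gave 0 to 19, with 19, 19 and 18 without KOPTK1 library 1, 2 or 3. The 58 members higher in KOPTK1 became 38 at 10-fold, and 57 to 61 without single libraries. The median share of the KOPTK1 level over the HPB-ALL libraries, 2.27%, became 10.5% as a ratio of summed levels, 5.62% for V segments and 0% without the HPB-ALL libraries headed 10, 11 and 12. The share in the other direction, 33.7% under the 2-fold rule, was 12.3% without the KOPTK1 libraries headed 1, 2 and 3. The latter value used segments picked anew by the 4-fold rule, so the libraries and the rule changed together. Both settings that leave out sets of libraries, the 2-fold minimum and the added length were chosen after seeing the data, and where no construction shows it the cause was not tested. All 468 values of 26 named segments under 18 alternatives each kept their direction, and 72 moved by more than 1 SD of the log2 library levels. These segments were picked by level or fold in the same data, and most alternatives leave out a single library. A kept direction was therefore likely beforehand, and no conclusion is drawn from it.

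RPKM of J and D segments shorter than a read is raised by reads that only overlap them. Fractional counts divide reads between near-identical copies, such as TRGJ1 and TRGJ2. Segments at a few counts have wide counting error. A count of 0 allows up to 0.131 CPM. Whether replicates were separate cultures is not given, and how the shRNA bears on any segment is not analysed here.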

Other observations

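The RPKM of TRBV12-3 divided by that of TRBC1 was 0.374 to 0.482 over the 6 HPB-ALL libraries. In KOPTK1 it was 0.432, 0.434, 0.440, 0.465, 0.511 and 0.335 in libraries 1 to 6, while the level of TRBV12-3 itself ranged from 12.2 to 62.5 RPKM. The RPKM of TRBV20-1 divided by that of TRBC2 was 0.752, 0.751, 0.741, 0.799, 0.799 and 0.818 in KOPTK1, and 0.00588 to 0.0125 in HPB-ALL libraries 7, 8 and 9 against 0.173 to 0.175 in 10, 11 and 12. TRBV10-3 held 0.118 to 0.139 of the TRBV20-1 level in KOPTK1 libraries and 0.0929 to 0.125 in HPB-ALL libraries 10, 11 and 12, but 0.4927, 0.898 and 0.729 in 7, 8 and 9. TRGV2 divided by TRGC2 was 0.515 to 0.644 in HPB-ALL and 0.898 to 1.05 in KOPTK1.

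Over the 6 KOPTK1 libraries, the rows whose log2 level followed TRBV20-1 most closely by Pearson correlation, among 8522 rows at 10 RPKM or more, were TRBC2, PCNA and TRGC2. For TRBV12-3 they were DROSHA, DDI2 and LIMS1. Because the libraries form separate clusters of 3, no pooled coefficient is given, and many rows share the pattern.

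The 8 copies of TRB V segments on chromosome 9 include 1 at 1 RPKM or more, TRBV26OR9-2, with medians of 1.41 RPKM in HPB-ALL and 0.501 RPKM in KOPTK1.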
